A study of Homo sapiens with 30 samples.

Results

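MicroRNA genes were examined in 5 human cell lines treated with elraglusib, a small molecule that inhibits the kinase GSK-3. A microRNA gene was any gene whose symbol on the array platform begins with MIR and a number or with MIRLET7, host genes of the HG type left out, and the members were chosen by their mean log2 signal over all 30 arrays, which had to be at least 6. This left 130 genes of the 1040 microRNA genes with a probe set of a single symbol, each read by its brightest probe set. The lines were HCT-116, HT-29 and KM12C, which are colorectal carcinoma lines, NK-92, a natural killer cell line, and TALL-104, a line of cytotoxic T cells. Cells of each line received elraglusib, recorded as 1 µM, or the vehicle DMSO for 24 h, with 3 arrays of each. The figure legends of the study also give 1 µM, while its text gives IC-50 concentrations for these arrays. A dose that differed between lines could not be told apart from line. The media of both immune lines contained IL-2 in both arms. The labels call the 3 arrays biological replicates without saying whether they came from separate passages, so p-values measure the spread between these arrays. RNA was hybridised to Human Transcriptome Array 2.0 chips and deposited as log2 signal, with array medians from 4.23 to 4.60.

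MicroRNAs are cut from long primary transcripts, first to a hairpin by DROSHA and DGCR8 in the nucleus and then to a short duplex by DICER1 in the cytoplasm. One strand is loaded on an Argonaute protein and directs it to messenger RNAs that pair with the seed, bases 2 to 8 of the mature sequence. Many microRNA genes lie inside a longer gene, as 101 of the 130 did here on either strand by the RefSeq annotation. The RNA was isolated with a column kit meant for longer RNA, and a probe set on such a chip can also read the primary or the host transcript. How much of any signal came from the mature microRNA was not tested.

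The 13 mature sequences below belong to the genes that the results turn on, from RefSeq (GRCh38.p14), written 5′ to 3′ with the seed in capitals. The first pair is shown because MIR21 and MIR590 carry the same seed, and both genes fell in HT-29 cells. Human miR-21-5p is encoded at chr17:59841273-59841294 on the plus strand within VMP1, and miR-590-5p at chr7:74191213-74191234 on the plus strand within EIF4H.
hsa-miR-21-5p: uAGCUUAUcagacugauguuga
hsa-miR-590-5p: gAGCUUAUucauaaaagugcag

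The next 4 show the likeness within MIR548, a large primate family whose hairpins derive from copies of a short transposable element. The 5p sequences of miR-548x, miR-548g and miR-548aj were identical, and miR-548f-5p carried the same seed, so 4 members shared GCAAAAG.
hsa-miR-548x-5p: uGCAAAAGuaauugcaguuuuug
hsa-miR-548f-5p: uGCAAAAGuaaucacaguuuuu
hsa-miR-548f-3p: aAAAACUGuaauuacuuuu
hsa-miR-548ad-3p: gAAAACGAcaaugacuuuugca

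The last 7 are of the remaining genes with the widest differences between treatments or between lines. The mature miR-644a is encoded at chr20:34466385-34466403 (plus strand, within ITCH), miR-4521 at chr17:8186948-8186969 (plus strand, overlapping a serine transfer RNA gene) and miR-142-3p at chr17:58331245-58331267 (minus strand, within MIR142HG).
hsa-miR-644a: aGUGUGGCuuucuuagagc
hsa-miR-4521: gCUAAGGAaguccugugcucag
hsa-miR-1268a: cGGGCGUGgugguggggg
hsa-miR-29a-3p: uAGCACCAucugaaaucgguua
hsa-miR-142-3p: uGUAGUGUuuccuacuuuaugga
hsa-miR-181b-5p: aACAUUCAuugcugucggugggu
hsa-miR-622: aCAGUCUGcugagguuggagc

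Mature sequences were found for 111 of the 130 genes, and 8 seeds were carried by more than 1 of them. Besides AGCUUAU and GCAAAAG, described above, they included ACAUUCA in MIR181B1, MIR181D and MIR4262. The letters AAAAGUAA, or UUACUUUU on the other strand, stood in 31 of 55 mature sequences of the MIR548 family and in 2 of the 2315 others in the table (0.09%). This pair of motifs was chosen after the sequences were read, and a match is a description only.

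The array labelled TALL-104 DMSO replicate 2 stood apart from its label. Its signals correlated at 0.988 to 0.993 with the NK-92 arrays and at 0.859 to 0.871 with the other TALL-104 arrays. The T cell receptor gene CD3D read 3.70 on it against 13.96 to 14.41 on the other TALL-104 arrays. The main treatment results for TALL-104 cells are therefore given with and without it. The levels of TALL-104 on the DMSO arrays, and the ranges between lines, include it unless stated otherwise. The markers of the other lines followed their labels, with a median over 11 epithelial genes of 7.35 to 14.22 in the colorectal lines against 4.62 to 5.37 in the immune ones, and a median over 7 T cell receptor and signalling genes of no more than 4.49 outside TALL-104.

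The threshold on signal selected the members and is described without a test. It held 12.5% of microRNA genes against 25.8% of all 67528 probe sets. MIR142 (mean 6.01) and MIR494 (6.01) lay just inside it, and MIR4449 (5.99) and MIR139 (5.98) just outside. The 6 highest means over all arrays were those of MIR548D1 (17.20), MIR548AD (16.73), MIR4466 (15.81), MIR548AJ2 (15.08), MIR548AI and MIR548D2. MIR548 had 26 members in all.

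The chromosome of the probe set did not match that of the gene for most of this family. Each probe set has an ID that carries a chromosome, and for 99.7% of 22456 probe sets with 1 symbol it was the chromosome that RefSeq gives for that gene. Among the MIR548 members it was so for 3 of 26 (MIR548AD, MIR548L and MIR548U), while it was so for 102 of the 104 other members and for all 16 MIR548 genes below the threshold. The brightest probe set of 14 of these genes could be compared with a probe set of the same symbol on the right chromosome, as plotted for both kinds. Since a member is the brightest probe set of its symbol, the others had to be dimmer, and their means were 3.65 to 7.20 against 6.86 to 15.08. The signals called MIR548 below are therefore signals of probe sets that the platform names so, and 23 of the 26 do not lie on the chromosome of the gene named.

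**Figure D1:**
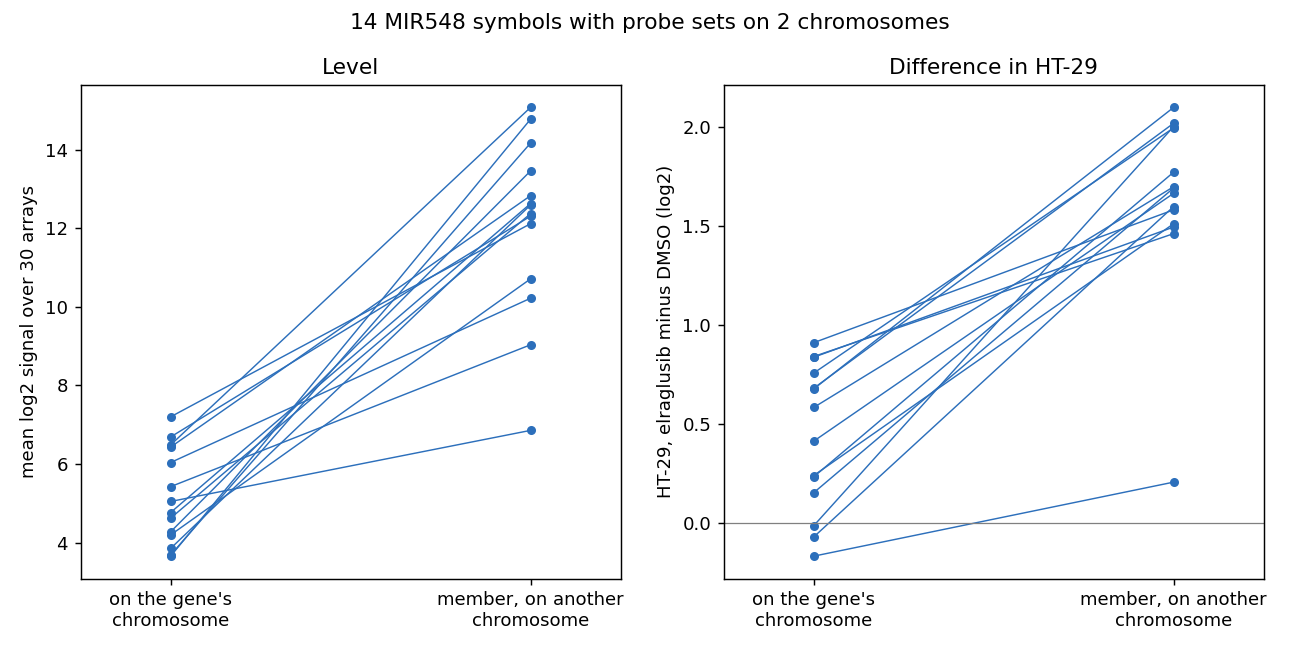
Mean log2 signal over the 30 arrays (left) and the difference between elraglusib and DMSO in HT-29 cells (right, log2) for 14 MIR548 symbols. Each line joins the probe set on the chromosome of the gene with the member on another chromosome, which is brighter by the rule that chose it and had the larger difference in all 14.

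In HT-29 cells the MIR548 signals rose together. Of the 26, 22 were higher at an adjusted p under 0.05, none was lower, and the median difference was 1.56 on the log2 scale. Over all 130 members 38 were higher and 8 lower, which is 35.4%. By the same test 8.01% of all 67528 probe sets were called in this line (4.62% higher and 3.39% lower), and 20.7% of the 17409 with a mean of at least 6 (10.8% and 9.88%). Called means an adjusted p under 0.05 from limma fitted to the 6 arrays of the line, with the Benjamini-Hochberg adjustment over all probe sets.

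The array medians of the family show the size of this. Over the 26 probe sets, the 3 HT-29 arrays with elraglusib had medians of 12.62, 13.01 and 13.30, and the 3 DMSO arrays 11.00, 11.56 and 11.54. The treated and vehicle arrays did not overlap. The medians over all probe sets of those arrays did overlap, at 4.34 to 4.40 with elraglusib and 4.25 to 4.46 with DMSO.

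MIR548X had the largest rise of the family. It read 12.28, 11.71 and 11.97 with elraglusib and 9.24, 9.69 and 9.06 with DMSO, so every treated array was above every vehicle array. The difference was 2.66 (SE 0.20, limma adjusted p = 0.000107). MIR548H3 read 13.87, 13.88 and 14.14 against 11.66, 12.14 and 11.80, a difference of 2.10 (SE 0.15). MIR548H2 rose by 2.02, MIR548I4 by 2.00 and MIR548F1 by 1.99. The probe set of MIR548AD, which is on the chromosome of its gene, read 17.50, 17.60 and 17.88 against 16.19, 16.75 and 16.39, a rise of 1.22 (SE 0.17, limma adjusted p = 0.0027).

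The 4 that were not called had differences of 0.91 (MIR548W), 0.55 (MIR548U), 0.33 (MIR548AL) and 0.21 (MIR548M). The last 3 were among the dimmer members, with DMSO means from 6.75 to 7.11. MIR548L, with a still lower mean over all arrays (6.20), was called higher. The 14 probe sets on the chromosomes of the genes had means of 3.65 to 7.20, with array medians of 4.25 to 4.46. Their median difference was 0.50 and 4 were called, against a median of 1.68 for the brighter members of the same symbols. Whether their lower level bears on this was not tested. The treated and vehicle arrays were separate for all 22 calls.

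Another 16 members outside the family rose in HT-29 cells, by 0.72 to 3.44. With the 8 that fell, 24 of the 104 members outside MIR548 were called. That is 23.1%, near the 20.7% of all probe sets with a mean of at least 6. MIR644A rose most, and read 10.33, 10.08 and 10.39 with elraglusib against 6.51, 7.19 and 6.77 with DMSO. That is 10.9-fold (SE 0.18 on the log2 scale, limma adjusted p = 3.46e-05). ITCH, the gene around it that encodes a ubiquitin ligase, differed by 0.01 (SE 0.11, limma adjusted p = 0.99). MIR4659A rose by 2.21, while AGPAT5, the gene it lies within, differed by 0.18 (limma adjusted p = 0.66). The mean of MIR4659A over all arrays was 6.03, just above the threshold of 6. The raised HT-29 arrays are part of that mean, so its rise helped it to pass. MIR3192 rose by 1.83, MIR1268A by 1.82, MIR1256 by 1.68, MIR4521 by 1.60 and MIR553 by 1.57. MIR1303, which rose by 1.06 (limma adjusted p = 0.046), lost its call in 5 of 6 fits with 1 array left out (up to 0.15) and under quantile normalization (0.077). The probe set of MIR1256, like most of MIR548, is not on the chromosome of its gene.

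The arrays on which these members were high were also those on which MIR548 was high. As deviations from the mean of each line over 29 arrays, the TALL-104 array above left out, MIR548 members had a median pairwise correlation of 0.83 over 325 pairs, against 0.21 over 5356 pairs of other members. The members outside the family closest to the family mean were MIR644A (r = 0.93), MIR1268A and MIR1256 (both 0.91), MIR1285-1 and MIR4659A (both 0.89). They share libraries with it, and the HT-29 arrays weigh on both sides of these correlations.

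**Figure D2:**
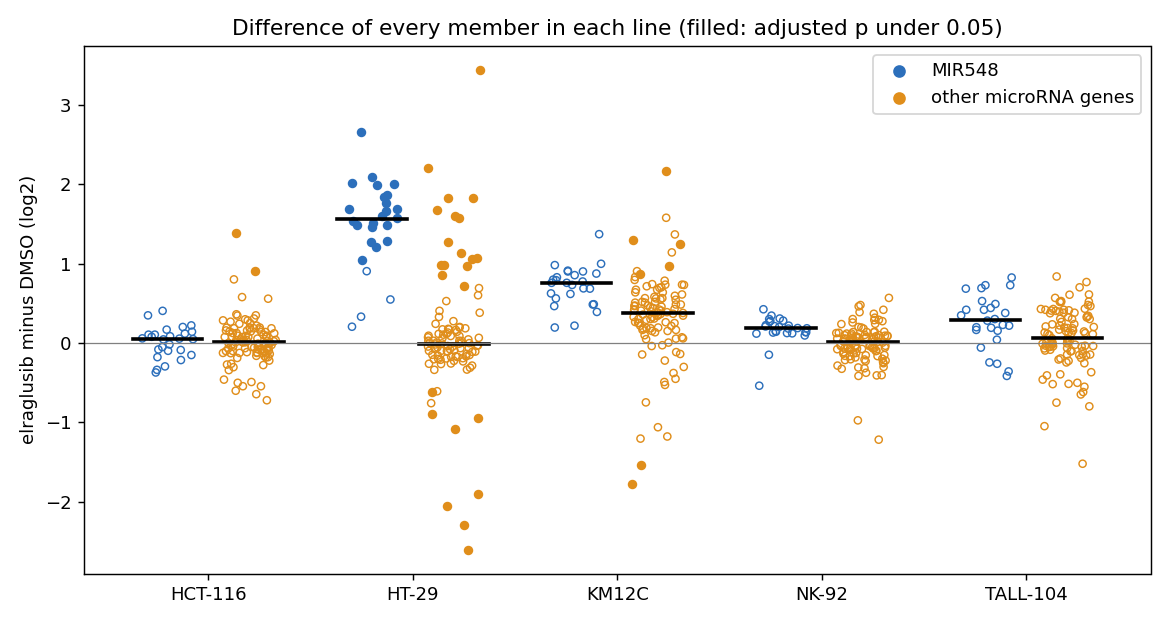
Difference between elraglusib and DMSO (log2, y axis) of all 130 members in each line (x axis), MIR548 in blue and the others in orange, with medians as black bars and members at an adjusted p under 0.05 filled. In HT-29 cells the MIR548 median is 1.56 and that of the others -0.005, and in KM12C cells they are 0.76 and 0.38.

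MIR21 and MIR590, which share the seed AGCUUAU, both fell in HT-29 cells. MIR21, raised in many tumours, read 4.06, 4.41 and 4.78 with elraglusib and 6.78, 6.88 and 6.47 with DMSO. It fell by 2.29 on the log2 scale (SE 0.19, limma adjusted p = 0.000195), to values around the array medians, where the chip may not resolve a lower level, so the size of the fall may be understated. MIR590 read 4.82, 5.23 and 5.71 against 7.78, 8.20 and 7.59 and fell by 2.60 (SE 0.24, limma adjusted p = 0.00028). EIF4H, a translation factor gene that contains MIR590, differed by -0.25 (limma adjusted p = 0.41). VMP1, which contains MIR21, was not analysed here.

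MIR29A, of a family that targets collagen messengers, read 4.63, 5.59 and 5.91 with elraglusib against 7.10, 7.21 and 7.53. It fell by 1.90 (SE 0.29, limma adjusted p = 0.0046). MIR29B1, 0.6 kb away, differed by 0.19 (limma adjusted p = 0.82), with a mean level of 4.96 that is close to the array medians. MIR3198-1 fell by 1.08, and BID, the apoptosis gene around it, differed by 0.16.

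MIR196A1, in the HOXB cluster of homeobox genes, read 7.27, 6.69 and 6.62 against 7.93, 7.68 and 7.81 and fell by 0.95 (SE 0.18, limma adjusted p = 0.013, and 0.053 without elraglusib replicate 2). Its neighbours fell as well. HOXB9, 6.1 kb away, differed by -1.79 (limma adjusted p = 0.000226) and HOXB8, 17.2 kb away, by -0.97. HOXB-AS4, on the opposite strand, differed by -0.57 (limma adjusted p = 0.016). The other 2 falls were those of MIR4263 by 0.90 and MIR663A by 0.62, which lost their calls in 2 and 5 of 6 fits with 1 array left out (adjusted p up to 0.066 and 0.12).

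Among the called members of HT-29 cells, 12 could be set beside a measured gene that contains them on the same strand. That host was called in the same direction in 1 of the 12 and not called in 11, where 8.01% of all probe sets were called in this line. The 1 was CKS2, a cell cycle gene that rose by 1.31 around MIR3153, which rose by 1.08 and lost its call in 5 of 6 fits with 1 array left out (adjusted p up to 0.15). Some hosts that were not called in HT-29 were still higher with separate arrays, as their members were. Among them were POLR3F around MIR3192 (0.59, limma adjusted p = 0.05006), LARP1 around MIR1303 (0.43, limma adjusted p = 0.066) and RTCA around MIR553 (0.40, limma adjusted p = 0.17). The arrays of ITCH, EIF4H and BID were not separate. In KM12C cells the host was called in 0 of 3 pairs, where 1.5% of all probe sets were called. A host that was not called is not shown to be unchanged.

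**Figure D3:**
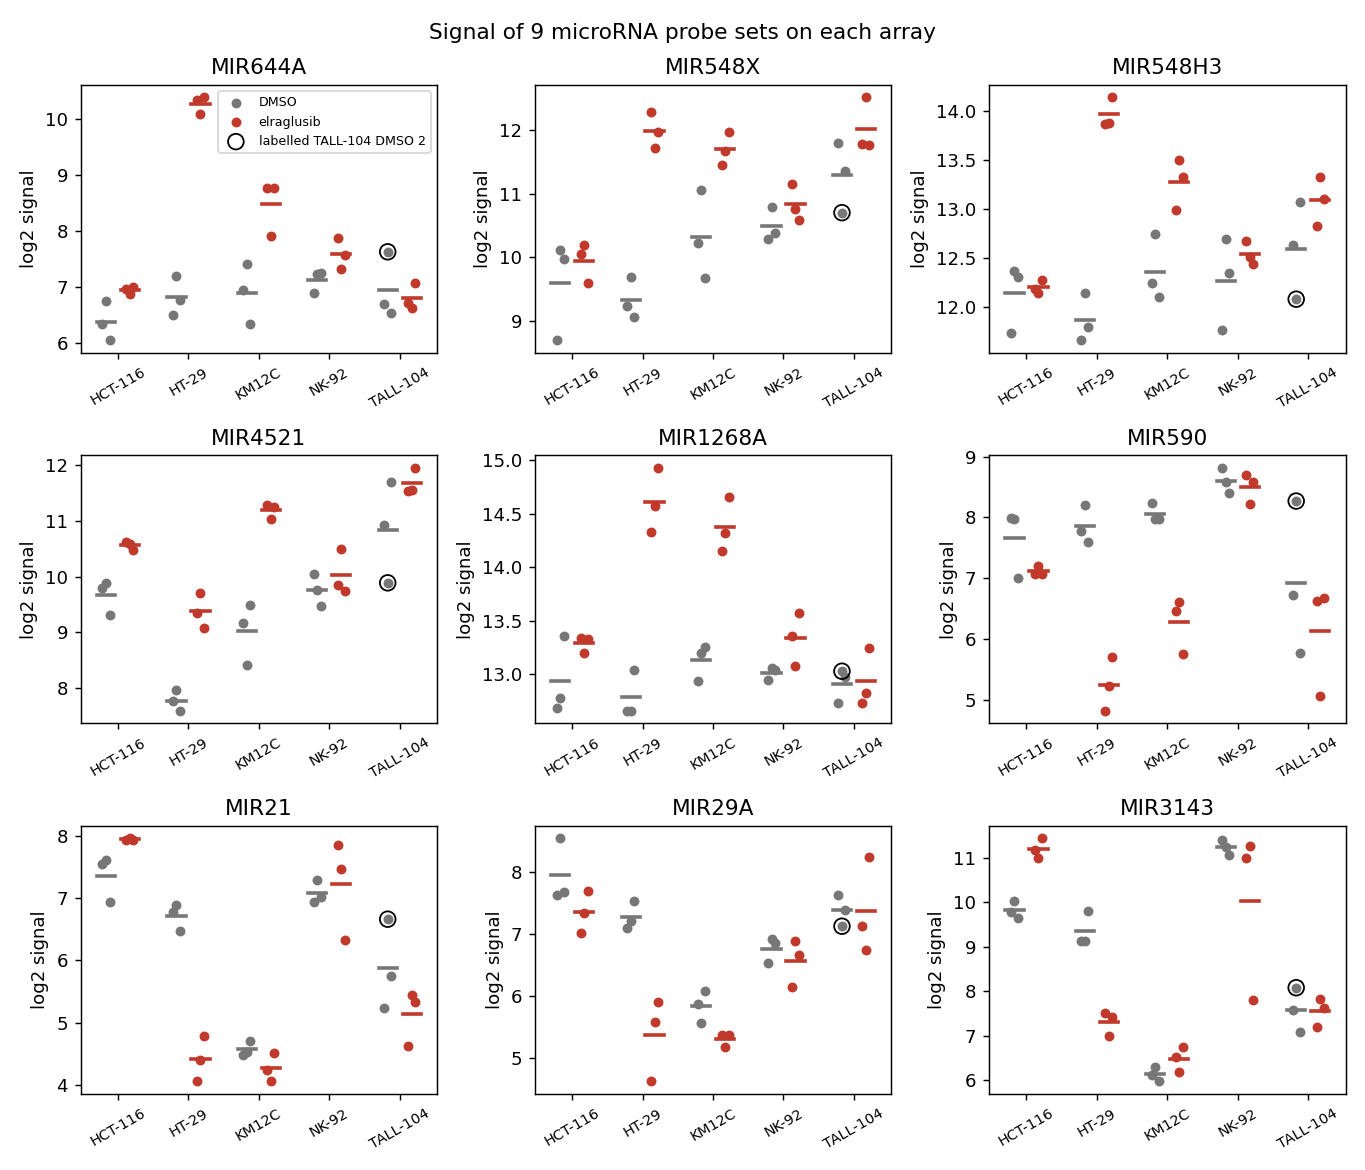
Log2 signal (y axis) on each array of 9 members in the 5 lines (x axis), DMSO in grey and elraglusib in red, with bars for the means of 3 arrays and a ring for the array labelled TALL-104 DMSO replicate 2. MIR644A in HT-29 cells lies between 10.08 and 10.39 on the treated arrays and between 6.51 and 7.19 on the vehicle arrays.

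MIR3143 was higher with elraglusib in HCT-116 cells and lower in HT-29 cells. In HCT-116 it read 11.18, 11.00 and 11.45 with elraglusib against 9.78, 10.04 and 9.65, a rise of 1.39 (SE 0.15, limma adjusted p = 0.014) whose call was lost in 4 of 6 fits with 1 array left out and in the fit over all 30 arrays (limma adjusted p = 0.34). In HT-29 it read 7.51, 6.99 and 7.41 against 9.13, 9.13 and 9.81, and fell by 2.05 (SE 0.21, limma adjusted p = 0.00058). The arrays were separate in both lines. The effect in HT-29 minus that in HCT-116 was -3.44 (limma adjusted p = 0.0043). In KM12C, where the level was lower, it read 6.53, 6.17 and 6.74 against 6.11, 6.30 and 5.97.

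The gene lies among replication-dependent histone genes, 0.1 kb from H2AC12 and 0.8 kb from H2BC12. All 5 histone genes measured within 20 kb fell in HT-29 cells, by 1.92 (H2AC12) to 3.02 (H2BC11). All 5 also fell in KM12C, by 0.93 (H2AC12) to 2.08 (H2BC11), and 0 of 5 were called in HCT-116. H2BC12 had differences of 0.55 in HCT-116 (limma adjusted p = 0.057), -2.46 in HT-29 and -1.20 in KM12C. Histone genes are near copies of one another, and these probe sets may not tell them apart. Whether MIR3143 reads a histone transcript was not tested.

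**Figure D4:**
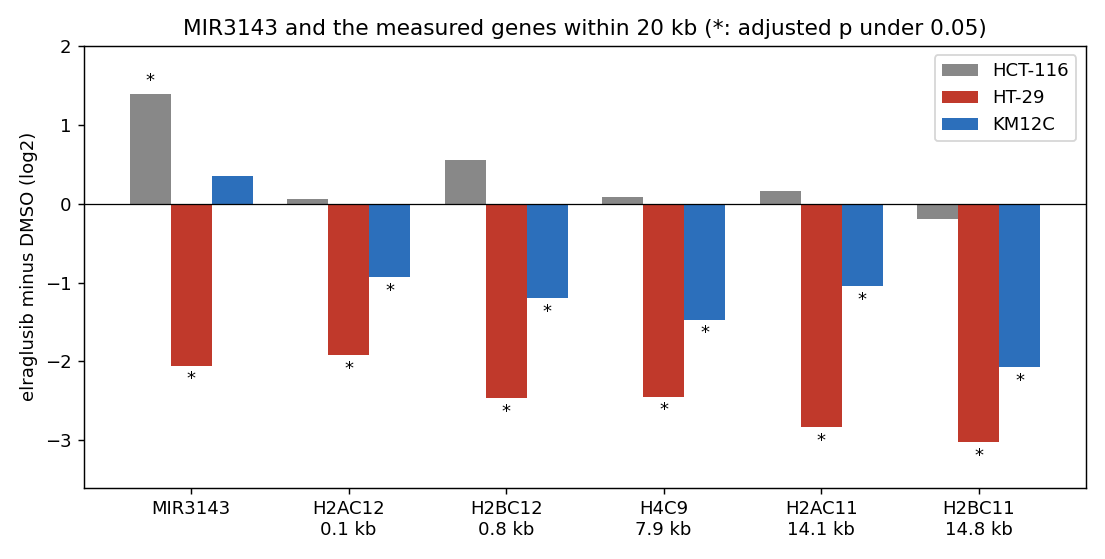
Difference between elraglusib and DMSO (log2, y axis) of MIR3143 and the 5 measured genes within 20 kb, with their distance below, in the 3 colorectal lines, and a star at an adjusted p under 0.05. MIR3143 differs by 1.39 in HCT-116 and by -2.05 in HT-29, and the 5 histone genes are lower in HT-29 and KM12C.

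In KM12C cells 5 members rose and 2 fell, which is 5.38% of 130 against 1.5% of all probe sets (0.603% higher and 0.894% lower) and 4.69% of those with a mean of at least 6. MIR4521 rose most, and read 11.29, 11.03 and 11.25 with elraglusib against 9.17, 8.41 and 9.49. The rise was 2.17 (SE 0.25, limma adjusted p = 0.0083). MIR5047, within the helicase gene DDX5, read 13.39, 13.69 and 13.89 against 12.34, 12.12 and 12.62 and rose by 1.30. MIR1268A rose by 1.24, MIR1303 by 0.98 and MIR4472-2 by 0.87.

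The falls were those of MIR590 and MIR181B1. MIR590 read 6.47, 6.61 and 5.75 against 8.23, 7.97 and 7.97 and fell by 1.78 (SE 0.22, limma adjusted p = 0.010). MIR181B1, of a family known from lymphocyte development, read 5.14, 5.04 and 4.71 against 6.70, 6.55 and 6.23. It fell by 1.53 (SE 0.17, limma adjusted p = 0.0065), while its host transcript MIR181A1HG differed by -0.30 (limma adjusted p = 0.33).

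The MIR548 signals of KM12C cells were all on the higher side but none was called. Their differences ran from 0.20 to 1.37 with a median of 0.76, the smallest adjusted p was 0.05004, and 22 of 26 had an unadjusted p under 0.05. Of all members, 113 of 130 had a higher mean with elraglusib, with a median difference of 0.45. It was 0.11 over all probe sets and 0.02 over those with a mean of at least 6. The array medians over all probe sets were 4.41 to 4.50 with elraglusib and 4.23, 4.26 and 4.47 with DMSO. With quantile normalization, which makes the array medians equal, the median over all probe sets was 0.01 and that of MIR548 0.75. That of the other members was 0.37 against 0.38 as deposited, and 113 of 130 were again higher. What lay behind these differences was not tested.

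The count of calls in KM12C turned on single arrays. It was 50 without DMSO replicate 3, 2 without DMSO replicate 1 and 4 without elraglusib replicate 3. For MIR548 it was 7 without DMSO replicate 3, 5 without DMSO replicate 2 and 1 without elraglusib replicate 1. The share of all probe sets called in these fits was not counted, so the changes may not be particular to the members. With 1 array left out, MIR4472-2 lost its call in 5 of 6 fits (adjusted p up to 0.12), MIR1303 and MIR5047 in 4 each (up to 0.13 and 0.078), and MIR590 and MIR1268A without DMSO replicate 1 (0.061 and 0.064). MIR181B1 lost its call once all 30 arrays were fitted together (limma adjusted p = 0.061) and regained it in that fit without the array labelled TALL-104 DMSO replicate 2 (limma adjusted p = 0.000144). At the thresholds of the study, a fold beyond 1.5 and an unadjusted p under 0.05, 41 members were higher and 6 lower in this line, which is 47 of 130 against 5.59% of all probe sets (2.82% higher and 2.77% lower).

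In HCT-116 cells 2 members were called, both higher, where 1.15% of all probe sets and 3.55% of those with a mean of at least 6 were called, and 0.817% of all were higher. They were MIR3143 and MIR4521, which read 10.63, 10.59 and 10.48 against 9.79, 9.89 and 9.31 and rose by 0.90 (SE 0.16, limma adjusted p = 0.049). The call of MIR4521 was lost without any 1 of the 6 arrays, with adjusted p from 0.078 to 0.17. That of MIR3143 was lost without elraglusib replicate 1 or 3 or without DMSO replicate 1 or 3, with values up to 0.062. In the fit over all 30 arrays neither was called (limma adjusted p = 0.29 for MIR4521 and 0.34 for MIR3143). MIR548 had a median difference of 0.05 there, between -0.37 and 0.41.

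MIR4521 was the 1 member called in 3 lines, higher in each. It read 9.35, 9.71 and 9.07 in HT-29 cells with elraglusib and 7.77, 7.96 and 7.59 with DMSO. The vehicle levels differed between the colorectal lines, so that its treated level in HT-29 was near the vehicle level in HCT-116. No difference between its effects in the colorectal lines passed the test. HT-29 minus HCT-116 was 0.70 (limma adjusted p = 0.63). KM12C minus HCT-116 was 1.26 (limma adjusted p = 0.26, and 0.067 without the array labelled TALL-104 DMSO replicate 2). A further 5 members were called in 2 lines. MIR1268A, MIR1303 and MIR4472-2 rose and MIR590 fell in both HT-29 and KM12C, and MIR3143 was the exception described above.

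The treatment effects themselves were compared between lines in a fit over all 30 arrays. In HT-29 minus HCT-116, 33 members differed, 31 of them upwards and 21 of them in MIR548, which is 25.4% (37 members without the array labelled TALL-104 DMSO replicate 2) against 4.02% of all probe sets (2.1% upwards and 1.91% downwards) and 9.72% of those with a mean of at least 6. MIR644A differed by 2.88, MIR548X by 2.31 and MIR21 by -2.87 (limma adjusted p = 0.000211). MIR21 in HCT-116 read 7.93, 7.96 and 7.93 with elraglusib against 7.54, 7.61 and 6.93.

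In HT-29 minus KM12C, which shares the HT-29 arrays with the contrast above, 9 members differed (6.92%) where 1.86% of all probe sets did (1.06% upwards and 0.792% downwards) and 4.42% of those with a mean of at least 6. Among them were MIR644A (1.86), MIR4659A (1.47) and MIR21 (-1.99). MIR21 was close to the array median in KM12C, at 4.25, 4.07 and 4.51 against 4.49, 4.53 and 4.71, so there was little room for it to fall there. This count was 16 without the array labelled TALL-104 DMSO replicate 2. It was 1 without KM12C DMSO replicate 2, 18 without KM12C DMSO replicate 3, 3 without HT-29 DMSO replicate 1 and 5 without elraglusib replicate 1 of either line. In KM12C minus HCT-116, 0 members differed where 0.748% of all probe sets and 1.9% of those with a mean of at least 6 did, and 4 members differed without the TALL-104 array. For the contrasts between colorectal lines, the shares of all probe sets in fits with an array left out were not counted.

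In the immune lines 0 members were called by limma, with or without the array labelled TALL-104 DMSO replicate 2, where 0 of all 67528 probe sets were called. An unadjusted p under 0.05 was reached by 7 of 130 in NK-92 and 14 in TALL-104, or 9 without that array. MIR548 had median differences of 0.19 in NK-92 and 0.29 in TALL-104, or 0.24 without the array. At the thresholds of the study 0 members passed in NK-92, where 0.801% of all probe sets did.

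In TALL-104, 5 passed those thresholds as higher and 1 as lower, or 2 and 1 without the array. Over all probe sets the share was 1.43% (1.02% higher and 0.404% lower), and 1.2% (0.777% and 0.422%) without it. The largest rises past these thresholds were those of MIR548Q (0.83), MIR3679 (0.77) and MIR548I4 (0.73), all with a limma adjusted p of 0.82. Without the array they were 0.62, 0.58 and 0.62, with 0.92. MIR4466 was the lower one. It read 14.45, 13.74 and 15.25 with elraglusib against 15.65, 16.99 and 15.36, the highest of which is the array in doubt. The difference was -1.52, and -1.03 without it. The effects of NK-92 and TALL-104 differed for 0 members, with or without it.

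The levels on the DMSO arrays differed most between lines for MIR622 and MIR142, and those wide ranges are why they are described. MIR622 read 13.53 to 13.85 in HCT-116, 15.66 to 15.83 in HT-29 and 15.12 to 15.76 in KM12C, against 5.82 to 6.34 in NK-92 and 5.39 to 5.92 in TALL-104. The colorectal and immune arrays were far apart, while HT-29 and KM12C overlapped. It lies within KRT18P27, a pseudogene copy of the epithelial keratin gene KRT18, and how far its probes read keratin transcripts was not tested.

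MIR142, a microRNA of blood cells, had the opposite pattern. It read 10.17 to 10.42 in NK-92 and 8.23 to 9.09 in TALL-104, against 3.38 to 4.60 in the 3 colorectal lines, so its mean passed the threshold only through the immune lines. The means were 10.26 in NK-92 and 8.54 in TALL-104, or 8.66 without the array in doubt. With elraglusib, NK-92 read 10.26, 10.15 and 7.46. The last value, of replicate 3, lay below every other NK-92 array. The same array read 7.80 for MIR3143, where the other NK-92 arrays read 11.00 to 11.40. The array labelled TALL-104 DMSO replicate 2 read 8.30 for MIR142 and 8.08 for MIR3143, which is also below the NK-92 arrays other than that one.

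MIR181B1 was highest in TALL-104, at 9.99 and 9.43 on 2 arrays and at 6.89 on the array in doubt, against 5.76 to 7.05 in the other lines. MIR3143 was highest in NK-92 (11.06 to 11.40) and lowest in KM12C (5.97 to 6.30). MIR4653, within AP1S1, a gene of the vesicle coat, was highest in HT-29 (8.34 to 8.47) and read 4.66 to 4.85 in both immune lines. MIR21 ran from 4.49 to 4.71 in KM12C to 6.93 to 7.61 in HCT-116, and the ranges of HCT-116 and NK-92 overlapped. MIR4737, within HEATR6, was highest in HCT-116 (14.70 to 15.12), and MIR4521 was lowest in HT-29 (7.59 to 7.96).

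Most members varied less than these. The median range of the 5 line means was 0.62 over the members, against 1.33 over all probe sets with a mean of at least 6, and 12 of 130 (9.2%) had a range over 2 log2 units against 29.1% of those probe sets.

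**Figure D5:**
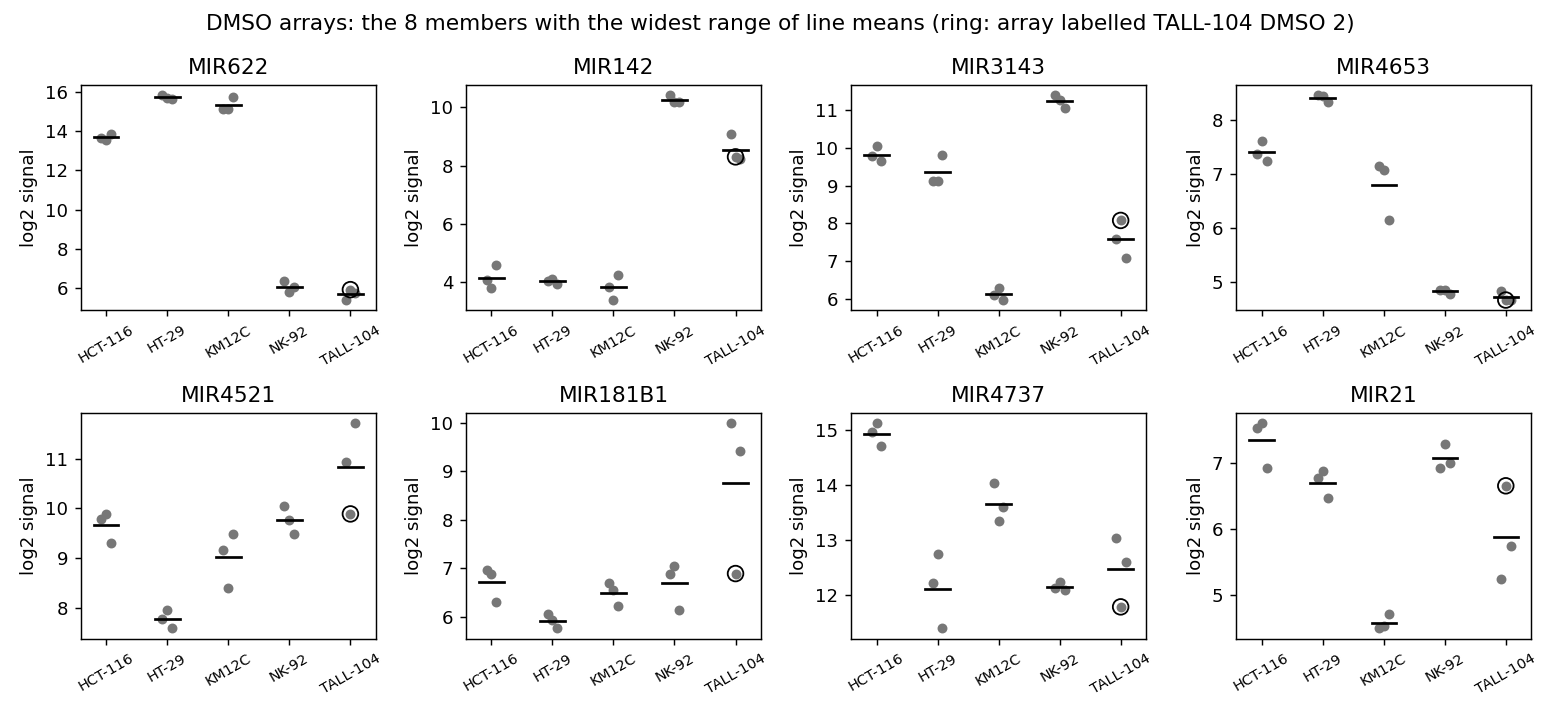
Log2 signal (y axis) on the 15 DMSO arrays by line (x axis) of the 8 members with the widest range of line means, with bars for the means and a ring for the array labelled TALL-104 DMSO replicate 2. MIR622 lies above 13.5 in the 3 colorectal lines and below 6.4 in both immune lines, and MIR142 the other way round.

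Well known microRNA genes were mostly dim on this chip. Of 67 in 6 lists (the MIR17HG cluster and its paralogs, let-7, p53-induced, epithelial, blood cell and tumour-raised microRNAs), 50 were measured and 4 were members, namely MIR21, MIR29A, MIR142 and MIR181B1. In HT-29 cells 0 of the 50 rose and 5 fell, where 4.62% of all probe sets were higher and 3.39% lower. Besides MIR21 and MIR29A these were MIRLET7I by 1.37, MIR221 by 0.91 and MIR25 by 0.79, all below the signal threshold on average. In KM12C 1 fell (MIR181B1), where 0.894% of all probe sets were lower, and in the other lines 0 were called. MIR186, which the study discusses and which had a mean of 5.13, differed by -0.70 in NK-92 (limma adjusted p = 0.585), by -0.67 in HT-29 (limma adjusted p = 0.046) and by -0.78 in KM12C (limma adjusted p = 0.146). It passed the thresholds of the study in all 3, and differed by -0.30 in HCT-116 and 0.08 in TALL-104.

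Of 31 genes of the pathway that makes and uses microRNAs, 24 were measured and 2 were called in 1 line each, in HT-29 and KM12C, where 8.01% and 1.5% of all probe sets were called. TNRC6A, which encodes a silencing partner of the Argonaute proteins, rose by 0.85 in HT-29 (limma adjusted p = 0.013), and XRN1, a gene for an RNA exonuclease, fell by 0.94 in KM12C (limma adjusted p = 0.036). The remaining 23 in each of these lines, and all 24 in the other lines, were not called. The medians of the 24 differences were -0.01 in HT-29 and -0.13 in KM12C, against 0 and 0.11 over all probe sets.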

How the data were processed

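The authors deposited log2 signals of 67528 probe sets made with the Transcriptomic Analysis Console, with its version and normalization not given in the sources used here. By the methods of the study, RNA was isolated in batches of 6 and chips were run in 2 randomized batches. Which batch an array belongs to is unknown here, so batch could not enter a fit. The values were used as deposited. Symbols came from the platform annotation, with 226 microRNA probe sets of several symbols left out, and names, neighbours and sequences from RefSeq (GRCh38.p14).

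Treatment was the only term of a limma model (limma 3.58.1, R 4.3.3) of the 6 arrays of a line, and treatment effects were compared in a fit over all 30 arrays. P-values were adjusted by the Benjamini-Hochberg method over all probe sets, and the steps were tested on simulated data. Other normalizations, filters, fits, thresholds and the omission of each array were tried.

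The members and gene lists were chosen with earlier results of these data known. Members named are up to 6 of the largest called rises and falls of a line with separate arrays (with under 2 calls, the 3 largest differences past the thresholds of the study), those called in more than 1 line, the 6 highest means, the 8 widest ranges, list members, those at the threshold, MIR186, and their hosts or neighbours. MIR548F1, MIR548W, MIR548U, MIR548AL, MIR548M, MIR3192, MIR1256, MIR553, MIR548L, MIR1285-1, MIR181D, MIR4262, MIR4263, MIR663A and MIR3153 were named after their values were seen. Arrays give no counts, and their small number, 3 of each, limits the precision.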

Additional observations from a re-analysis of the deposited data

Results flagged for a closer look

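Of the 46 members named, the effect of elraglusib differed between HT-29 and HCT-116 cells for 22 by the test of the difference itself (limma adjusted p from 2.73e-06 to 0.035). Over all probe sets 4.02% differed. Many of the 46 were named for large differences on these same arrays, so the count partly reflects that choice. In MIR548 the effect was larger in HT-29 by 2.31 for MIR548X, 2.04 for MIR548H3, 1.87 for MIR548F1, 1.81 for MIR548H2, 1.78 for MIR548L, 1.71 for MIR548Q, 1.64 for MIR548AI, 1.59 for MIR548AJ2 and MIR548I4, 1.47 for MIR548D2, 1.37 for MIR548AD and 1.14 for MIR548D1. Outside the family it was larger by 2.88 for MIR644A, 2.21 for MIR4659A, 1.71 for MIR1256, 1.65 for MIR553, 1.52 for MIR3192, 1.48 for MIR1268A, 1.02 for MIR4472-2 and 0.78 for MIR1285-1. MIR3143 differed by -3.44 and MIR21 by -2.87.

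Between HT-29 and KM12C cells 7 of the 46 differed, where 1.86% of all probe sets did, and the same limit holds. The differences were 1.86 for MIR644A, 1.47 for MIR4659A, 1.36 for MIR553, 1.24 for MIR548AI, 1.01 for MIR548F1 and 0.94 for MIR548AJ2, and -1.99 for MIR21, whose level in KM12C was at the array median. For KM12C minus HCT-116 the limma test was passed by 0 of the 46, where 0.748% of all probe sets passed. Without the array labelled TALL-104 DMSO replicate 2 it was passed by 4, among them MIR181B1 (-1.48, limma adjusted p = 0.014) and MIR5047 (1.64, limma adjusted p = 0.021). For NK-92 minus TALL-104 it was passed by 0, with or without that array, and by 0 of all probe sets.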

How the results depend on the processing

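Of the 130 members, 46 were called in HT-29 cells, and 24 of the 105 on the chromosome of their gene (22.9%). The 46 became 39 to 44 with 1 array left out. The methods' t-test gave 17 in its unpaired and 1 in its paired form. For MIR548 in HT-29 (22) these were 22 to 23, 12 and 1. In KM12C (7) the count was 2 to 50 with 1 array left out, 17 without dim probe sets, 13 with trend and robust fitting, 22 in the fit over all arrays, 32 in that fit without the array labelled TALL-104 DMSO replicate 2 (chosen after seeing the data, as was the chromosome restriction), 47 at the study's thresholds and 0 with either t-test. For MIR548 in KM12C (0) the counts were 0 to 7, 7, 6, 11, 13 and 18, and 3 with quantile normalization. In HCT-116 (2) it was 0 to 1 with 1 array left out, 0 in the fit over all arrays and with either t-test, 1 in that fit without the TALL-104 array and 4 at the study's thresholds. In NK-92 and TALL-104 it stayed 0 with any array left out, and was 6 in TALL-104 at the study's thresholds. Effects that differed numbered 25 to 35, with 1 array of the lines compared left out, for HT-29 minus HCT-116 (33), 1 to 18 for HT-29 minus KM12C (9) and 0 to 3 for KM12C minus HCT-116 (0). The fit without the TALL-104 array gave 37, 16 and 4, and the last was 2 with quantile normalization and 1 without dim probe sets. The share of all probe sets was not counted in the fits of the colorectal lines, or of their contrasts, with an array left out. These changes in counts may therefore not be particular to the members. The causes were not tested.

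With the replicate number as a block (replicate block), 0 members were called in HCT-116, 48 in HT-29 and 16 in KM12C, 24 and 3 of MIR548 in the last 2, and HT-29 minus KM12C gave 4. As deviations from their group means, same-numbered arrays of a line correlated at -0.48 to 0.21. With so few arrays this does not settle whether the numbers pair them. The 40 calls of the members named kept their direction under the alternatives run. With 1 array left out they were kept in 194 fits and lost in 46, which were of MIR3143 and MIR4521 in HCT-116, MIR196A1, MIR663A, MIR1285-1, MIR1303, MIR3153 and MIR4263 in HT-29, and MIR1268A, MIR1303, MIR4472-2, MIR5047 and MIR590 in KM12C. Of the 8 widest ranges between lines, 7 kept their highest and lowest line under quantile normalization.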
